A study of Mus musculus with 8 samples.

Results

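Macrophages of GL261 tumours in Acod1 knock-out (KO) mice were followed from the early to the late stage of tumour growth. They were chosen by marker transcripts in 3 KO libraries, 1 per stage, and comprised 269 of the 2356 cells kept in those libraries and of the 5698 cells kept in the whole series. Among the 1000 barcodes with most transcripts per library that had at least 1000 genes, a cell was taken when Tyrobp, Fcer1g and Lyz2 together reached 30 unique molecular identifiers (UMIs, each a counted transcript) per 10000. Tgfbi, Thbs1, Ccr2, Ly6c2, Plac8, Ms4a7, Arg1 and Mrc1 had to reach 10 per 10000 and exceed the microglial genes P2ry12, Siglech, Cx3cr1 and Gpr34, and the tumour cell genes Col9a1, Lect1 and Rhox5 had to stay under 10. The rule found 76 macrophages at the early, 87 at the intermediate and 106 at the late stage. The macrophage sum of 4 of them lay between 10 and 15 per 10000, and 4 further myeloid cells fell just below the limit, between 5 and 10.

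The series measured single brain cells of C57BL/6 mice (C57BL/6N in the study's methods) by Drop-seq, which tags the 3′ end of each transcript with a cell barcode and a UMI. The tumour-bearing KO mice carried both inactivated copies of Acod1 (labelled Irg1/Acod1 -/-) and received 500 GL261 cells, a mouse glioma line of the same strain, into the brain. Stages were set by tumour volume on magnetic resonance imaging, 5 to 10 mm3 for early, 20 to 25 mm3 for intermediate and 30 to 35 mm3 for late. WT mice (Irg1/Acod1 +/+) with GL261 tumours of the same 3 volume classes and naïve brains of both genotypes made up the 8 libraries. Each tumour-bearing library came from 1 mouse, so stage, mouse and library cannot be told apart. The targeted allele is carried by the cells of the host mouse but not by the implanted tumour cells. The early and late KO mice were male and the intermediate KO mouse female, with 0, 195 and 0 UMIs of Xist in the macrophages of the 3 stages. The early WT mouse was female and the intermediate and late WT mice male (261, 0 and 0 UMIs), so that early and late differ in sex in WT but not in KO, and sex cannot be told apart from stage in the WT ratios.

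Tumour-associated macrophages are bone marrow-derived myeloid cells that enter the brain as monocytes and mature next to the resident microglia. They take up debris and lipid, present peptides to T cells on MHC class II molecules, and release chemokines that attract further leukocytes. Interferon-γ from lymphocytes induces in them the guanylate-binding proteins, Cxcl9, Cxcl10 and the transcription factor Irf1. Acod1 makes itaconate, a metabolite that dampens inflammatory responses of activated macrophages.

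The early, intermediate and late KO tables held 6273771, 7080155 and 6445087 UMIs over 3000 barcodes each. The macrophages contributed 397725, 379473 and 439429 UMIs, with a median of 3918, 3419 and 2945 UMIs and of 1797, 1549 and 1479 genes per cell. No macrophage barcode was shared between KO libraries (0 in each pair). Levels are given as CPM, the summed UMIs of a gene scaled to the summed UMIs of all macrophages of the library, with exact 95% Poisson intervals, and stages are compared by the log2 ratio of the summed counts with an exact 95% binomial interval. Both intervals cover counting error only, since 1 library per stage leaves the spread between mice unmeasured and no test between stages was possible. A gene is called higher or lower where the ratio was at least 2-fold.

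Outside the rule, the cells carried general myeloid genes that do not separate macrophages from microglia. Csf1r, the growth factor receptor of the lineage, stood at 302, 335 and 419 CPM in early, intermediate and late cells, against 1947 and 1279 CPM in the microglia of the early and late libraries. Itgam was at 322, 329 and 348 CPM (microglia 475 and 776) and Aif1 at 1028, 1062 and 1668 CPM (microglia 1828 and 2307). The defining microglial gene Tmem119 reached 12.6, 18.4 and 29.6 CPM in the macrophages, against 760 and 419 CPM in those microglia, and Cd14 stood at 1951, 2667 and 1575 CPM, against 451 and 461 CPM. The genes of the rule are a description only. Ms4a7 stood at 158, 377 and 653 CPM, Cx3cr1 at 88.0, 235 and 291 CPM, Arg1 at 4978, 2577 and 4062 CPM, Ly6c2 at 1421, 899 and 1104 CPM and Ccr2 at 661, 366 and 776 CPM.

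Acod1 (chr14:103046977-103056573, plus strand, GRCm38) was measured first, as the targeted gene. The macrophages of the libraries labelled KO held 27 Acod1 UMIs in 12 cells at the early stage (67.9 CPM, 44.7 to 98.8), 5 in 4 cells at the intermediate stage (13.2 CPM, 4.28 to 30.7) and 24 in 13 cells at the late stage (54.6 CPM, 35.0 to 81.3). Those of the libraries labelled WT held 81 (136 CPM, 108 to 170), 3 (29.5 CPM, 6.08 to 86.2) and 3 UMIs (36.1 CPM, 7.44 to 105). The 4 macrophages of each naïve library held none, with upper limits of 314 CPM in KO and 177 CPM in WT. Acod1 transcripts were therefore present in the libraries labelled KO, at a lower level than WT at the early stage, and with overlapping intervals at the intermediate and late stages. The tumour cells of the early and late KO libraries held 6 and 3 Acod1 UMIs (1.75 and 0.866 CPM), and the part of free RNA in the macrophage counts was not tested. The targeted allele holds an insertion cassette, and a 3′ count does not show whether a transcript encodes a working enzyme.

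Macrophages made up 33.0% (exact binomial interval 27 to 39.5) of 230 nontumour cells at the early, 30.3% (25.0 to 36.0) of 287 at the intermediate and 37.7% (32.0 to 43.7) of 281 at the late stage of KO tumours. The 3 intervals overlapped, and the late share was 4.68 percentage points above the early one (Newcombe interval -3.67 to 12.8, for the counting of cells only). With 1 mouse per stage the spread of the share between mice is unmeasured. Microglia chosen by the matching rule numbered 12, 31 and 13, so that macrophages were 86.4%, 73.7% and 89.1% of the cells of both kinds. In WT tumours the macrophage share of nontumour cells was 23.9% (20.1 to 28.1), 21.5% (13.1 to 32.2) and 13% (8.02 to 19.6), from 110, 17 and 19 macrophages. The WT values for intermediate and late therefore rest on few cells.

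Of 2981 genes with at least 50 UMIs in the early and late sums together, 118 were at least 2-fold higher in late KO macrophages (3.96%) and 99 at least 2-fold lower (3.32%). The median log2 ratio over all tested genes was 0.01, and 1510 genes lay above 0. For 21 of the higher and 24 of the lower genes the whole counting interval lay at or beyond 2-fold. Without the cell with most UMIs of the gene in each library, 10 of the higher and 5 of the lower genes came under 2-fold.

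**Figure D1:**
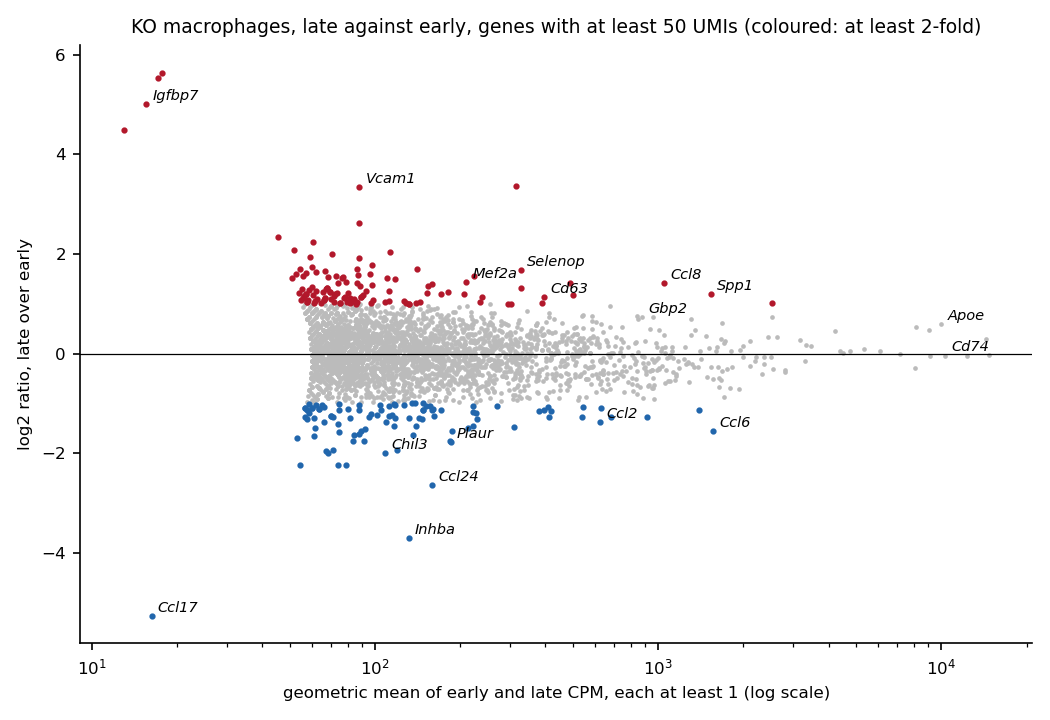
Each point is 1 of the 2981 tested genes, plotted by its mean level in early and late KO macrophages (log axis, CPM) and its log2 ratio of late over early, coloured where the ratio was at least 2-fold and with sums of 0 set to 3 counts. Vcam1 and Selenop stand among the higher genes, Inhba, Ccl24 and Ccl6 among the lower, and Cd74 lies at -0.04.

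Among genes with at least 100 UMIs, Vcam1 was among the 3 highest ratios. Vcam1 (chr3:116109949-116129688, minus strand) encodes an adhesion molecule that binds integrins of leukocytes, and it was at 27.7 CPM (13.8 to 49.5) in early, 232 CPM (186 to 286) in intermediate and 280 CPM (233 to 334) in late KO macrophages, a log2 ratio of 3.34 (2.45 to 4.38). UMIs were found in 5 of 76, 21 of 87 and 27 of 106 cells, and the ratio was 3.52 without the top cell of each library. In the WT libraries Vcam1 was at 285, 19.7 and 12 CPM, the last from 1 UMI, a log2 ratio of -4.57 (-9.88 to -2.07). KO and WT thus ran in opposite directions for this gene, a difference that could not be tested with 1 library each.

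Selenop (chr15:3268547-3280508, plus strand), which encodes a secreted selenium carrier made by maturing macrophages, was at 184 CPM (144 to 231), 445 CPM (381 to 518) and 583 CPM (513 to 658), a log2 ratio of 1.67 (1.29 to 2.06). It was counted in 35, 44 and 80 cells, and no single late cell held more than 16 of its 256 UMIs. The WT libraries gave 357, 383 and 1118 CPM, a ratio of 1.65 in the same direction. Mef2a, a transcription factor of macrophages and other cells, was at 128, 321 and 346 CPM (1.43, 0.97 to 1.92), with the intermediate cells close to the late ones. Eif4g3, a translation initiation factor, was at 70.4, 166 and 198 CPM (1.49, 0.86 to 2.16). Gm1966, a pseudogene of the interferon-inducible very large GTPases that may share reads with its relatives, was at 65.4, 76.4 and 187 CPM (1.51, 0.86 to 2.21).

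Several of the 12 highest ratios rested on 1 or a few late cells that also carried transcripts of other cell types. Igfbp7, made by endothelial cells, had 0 early UMIs and 107 late UMIs, 90 of them in 1 cell. The lymphocyte protease Gzmc (1.55) came from 1 early and 2 late cells, and Ctla2a (2.63), Ifitm1 (2.05), Apod (1.77) and Sparc (1.70) had 65 of 96, 58 of 101, 60 of 79 and 51 of 111 late UMIs in 1 cell. In C1q cells alone Ctla2a was at -0.56 and Ifitm1 at -0.26.

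The oligodendrocyte marker list of 10 genes summed to 299, 158 and 1659 CPM in early, intermediate and late macrophages, with 33.7% of the late sum in 1 cell, and 9, 8 and 10 of its genes were above 0. The endothelial list of 8 genes stood at 141, 76.4 and 196 CPM, 48.8% of it in 1 late cell, and the defining gene Cldn5 at 0, 0 and 10 UMIs. Its member Flt1 was at 45, 22 and 41 UMIs, a log2 ratio of -0.28 (-0.92 to 0.37). The list of 19 T and NK lymphocyte genes stood at 862, 461 and 1106 CPM, with 36.7%, 26.3% and 40.5% of each sum in 1 cell. Ttr, the marker of choroid plexus, was at 2.51, 58.0 and 116 CPM over 1, 16 and 34 cells and was higher in the tumour cells of the late library as well (5.16). The tumour cell list stood at 194, 105 and 257 CPM. Leaving out cells with at least 10 per 10000 of oligodendrocyte or endothelial markers kept 70, 84 and 92 cells and gave 103 higher and 94 lower genes, with Apod at -0.77, Vcam1 at 3.48 and Inhba at -3.62. Leaving out cells with that much of T and NK lymphocyte, neutrophil or dendritic cell markers kept 49, 71 and 82 cells and gave 95 higher and 86 lower genes, with Vcam1 at 3.06 and Inhba at -3.45. The part of free RNA in the ratios was not tested.

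**Figure D2:**
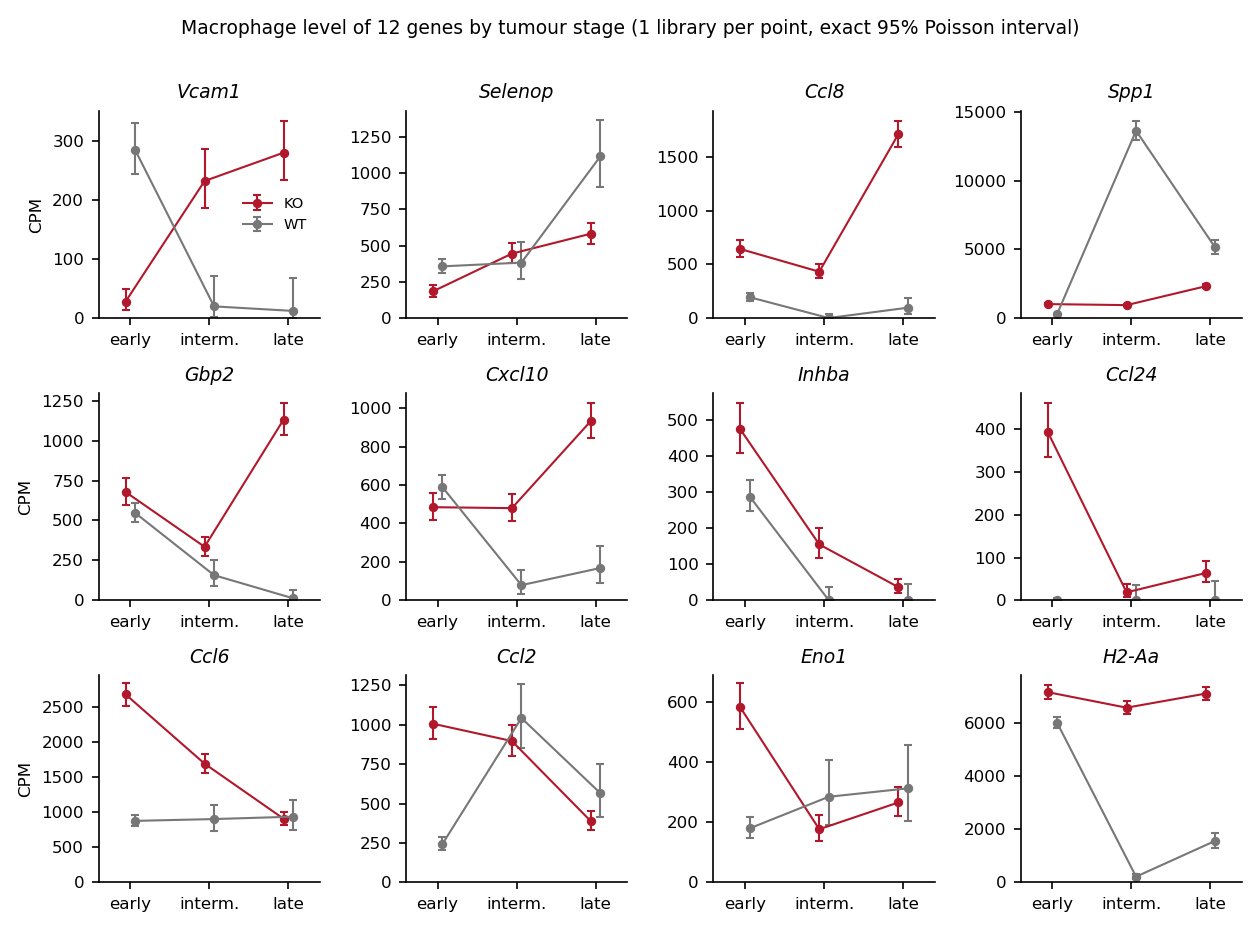
Levels (CPM, linear axes from 0) of 12 named genes in KO (red) and WT (grey) macrophages at the early, intermediate and late stage, with exact 95% Poisson intervals that cover counting error only and 1 library per point. In KO, Vcam1 is at 27.7 CPM early and 280 CPM late, Inhba at 475 and 36.4 CPM, and Cxcl10 at 485, 480 and 935 CPM.

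Next to Ccl17, the lowest ratio among genes with at least 100 UMIs was that of Inhba (chr13:16011851-16031621, plus strand), which encodes the activin A subunit of the TGF-β family. It was at 475 CPM (410 to 548), 155 CPM (118 to 201) and 36.4 CPM (20.8 to 59.1), a log2 ratio of -3.71 (-4.54 to -2.97), with UMIs in 20, 12 and 6 cells. One early cell held 87 of the 189 early UMIs, and the ratio was -4.01 without the top cells. The WT libraries gave 288 CPM at the early stage and 0 UMIs at both later stages. The urokinase receptor Plaur stood at 342, 300 and 100 CPM (-1.77, -2.30 to -1.27) and Il1a, an alarmin of the interleukin-1 family, at 339, 285 and 100 CPM (-1.76, -2.29 to -1.26), both with the step between intermediate and late. The lectin Mgl2 was at 319, 266 and 109 CPM (-1.55, -2.06 to -1.06).

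Ribosomal protein genes, their pseudogenes and other predicted (Gm) genes were 31 of the 99 lower and 2 of the 118 higher genes. Their share among all 2981 tested genes was not counted. Ribosomal protein genes held 4.74%, 3.92% and 3.63% of macrophage UMIs, against 6.45%, 5.29% and 4.99% in the tumour cells of the same libraries. Gm16379 (-1.93) and Gm10169 (-1.47) belong here, and reads of such copies may be split with their parent genes. The short transcript Ost4 was lower in macrophages (-1.64) and in tumour cells (-1.46). Of the genes with 50 UMIs in tumour cells, 88 of 102 higher and 66 of 79 lower genes had the same sign there, against 69.0% of all 2765 such genes. Among them 7 higher and 17 lower genes were 2-fold in that direction, while genes 2-fold in tumour cells were 3.47% of all tested genes. The median tumour cell ratio was 0.30 for the higher and -0.71 for the lower genes. The part of a change common to the whole library in the macrophage ratios was not tested.

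Among the 21 gene lists, that of chemokines and receptors had the most members at least 2-fold lower. Of all 2981 tested genes, 3.96% were 2-fold higher and 3.32% lower, the background for this and the other lists. Of 15 tested chemokines and receptors, 6 were at least 2-fold lower in late KO macrophages and 0 were 2-fold higher, with a median log2 ratio of -0.86. Their summed level was 13213 CPM at the early, 13925 CPM at the intermediate and 8290 CPM at the late stage (-0.67, -0.73 to -0.61), so the difference of the sum lay between the intermediate and the late stage. Single members did not all follow the sum. Their median ratio of intermediate over early was -0.17, with Ccl6 and Ccl9 already lower at the intermediate stage and the abundant Cxcl2 higher. In the WT libraries the same sum was at 6769, 15415 and 10920 CPM (0.69, 0.58 to 0.79). Other cells of the early and late KO libraries also had ratios below 0 for this list. They were -1.64 (-1.82 to -1.47) in microglia, from 12 and 13 cells, and -0.83 (-0.88 to -0.77) in tumour cells. The part of a change common to the whole library was not tested. Chemokines that stand in the interferon-γ and alternative activation lists are left out of these counts. With them, a set chosen after seeing the data, 1 of 21 members was 2-fold higher, Ccl8, and 8 were 2-fold lower, the median was -0.57, and the sum was at 16713, 16454 and 13174 CPM (-0.34, -0.39 to -0.29).

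Ccl6, a macrophage-derived ligand of Ccr1, was at 2683 CPM (2524 to 2849), 1694 CPM (1566 to 1831) and 908 CPM (821 to 1002), a log2 ratio of -1.56 (-1.73 to -1.40). It was detected in 50, 54 and 68 cells, and 1 early cell held 236 of 1067 UMIs (-1.39 without the top cells). Its neighbour Ccl9, 9245 bases away on chromosome 11 and acting through the same receptor, was at 591, 451 and 282 CPM (-1.07, -1.39 to -0.75). For both genes the intermediate level lay between the other two.

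The monocyte attractants had ratios below 0, apart from Ccl8. Ccl2, the main ligand of Ccr2, was at 1006, 896 and 387 CPM (-1.38, -1.65 to -1.12). Ccl7, 8258 bases from Ccl2 and also a Ccr2 ligand, was at 832, 630 and 346 CPM (-1.27, -1.55 to -0.99), and Ccl12 of the same cluster at 749, 514 and 414 CPM (-0.86). The ratio of Ccl2 was under 2-fold when every cell weighed the same (-0.85) or was thinned to 1500 UMIs (-0.68). In the few cells below a limit of C1q transcripts, described with the division by C1q, Ccl7 had 3 early and 6 late UMIs (0.86). Ccl8, which lies 11784 bases beyond Ccl12, was at 644, 432 and 1714 CPM (1.41, 1.21 to 1.62). Ccl8 was counted in 13, 18 and 44 cells, and as 1 early cell held 161 of the 256 early UMIs its ratio was 2.59 without the top cells.

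Among ligands of other receptors, Ccl4, an attractant of monocytes and lymphocytes, was at 918, 843 and 430 CPM (-1.09, -1.35 to -0.84) and the neutrophil attractant Cxcl2 at 2311, 4185 and 1258 CPM (-0.88), highest at the intermediate stage. Mif, a cytokine of many cell types, was at 1061, 540 and 437 CPM (-1.28), and it was lower in the tumour cells of the late library too (-1.03). The receptor Ccr1 was at 443, 277 and 578 CPM (0.39, 0.10 to 0.67). WT ratios were above 0 for Ccl2 (1.22) and Ccl7 (0.72), opposite to KO, and were not compared by a test.

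Interferon-γ response genes had ratios above 0 in nearly all members, though few were called. Of 19 tested members 18 lay above 0 with a median of 0.43, against 0.01 for all genes, while 1 was 2-fold higher and 0 were 2-fold lower. The summed level was 6824 CPM at the early, 5091 CPM at the intermediate and 9701 CPM at the late stage (0.51, 0.44 to 0.58), so the intermediate library lay below both others. In the WT libraries the sum was at 6480, 2409 and 1612 CPM (-2.01, -2.27 to -1.76). Microglia of the early and late KO libraries had a ratio of 0.89 (0.65 to 1.13) for this list, and tumour cells one of 0.13 (0.11 to 0.15).

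The guanylate-binding proteins, GTPases of cell-autonomous defence, had ratios above 0, with 1 of the 4 given here at 2-fold. Gbp8 was at 163, 171 and 337 CPM (1.04, 0.61 to 1.49), Gbp2 at 679, 335 and 1133 CPM (0.74, 0.52 to 0.96), Gbp3 at 302, 279 and 460 CPM (0.61) and Gbp7 at 420, 353 and 601 CPM (0.52). These genes are similar in sequence and may share reads. Gbp2 was counted in 57, 48 and 87 cells.

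Cxcl10, which attracts Cxcr3-bearing T cells, was at 485 CPM (419 to 559), 480 CPM (412 to 555) and 935 CPM (847 to 1030), a log2 ratio of 0.95 (0.70 to 1.20), and its relative Cxcl9 at 1154, 957 and 1488 CPM (0.37, 0.19 to 0.54). Irf1 was at 179, 187 and 280 CPM (0.65). The one member below 0 was Nos2, the inducible nitric oxide synthase, at 90.5, 34.3 and 75.1 CPM (-0.27). Late WT macrophages held 1 UMI of Gbp2, 1 of Gbp8, 14 of Cxcl10 and 0 of Ccl5, in 19 cells of 1 mouse. The counting intervals of the WT ratios of these genes lay below 0, and the spread between mice is unmeasured.

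The type I interferon-stimulated genes did not form such a group. Of 21 members 2 were 2-fold higher, Ifit3 at 52.8, 60.6 and 141 CPM (1.42) and Stat2 at 47.8, 71.2 and 112 CPM (1.22), and 12 lay above 0 (median 0.25). Their sum nevertheless had a ratio of -0.23 (-0.30 to -0.16), since the abundant Ifitm3, a restriction factor of virus entry, was at 2464, 1102 and 1511 CPM (-0.71) and Bst2, which tethers viruses, at 822, 785 and 537 CPM (-0.61).

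**Figure D3:**
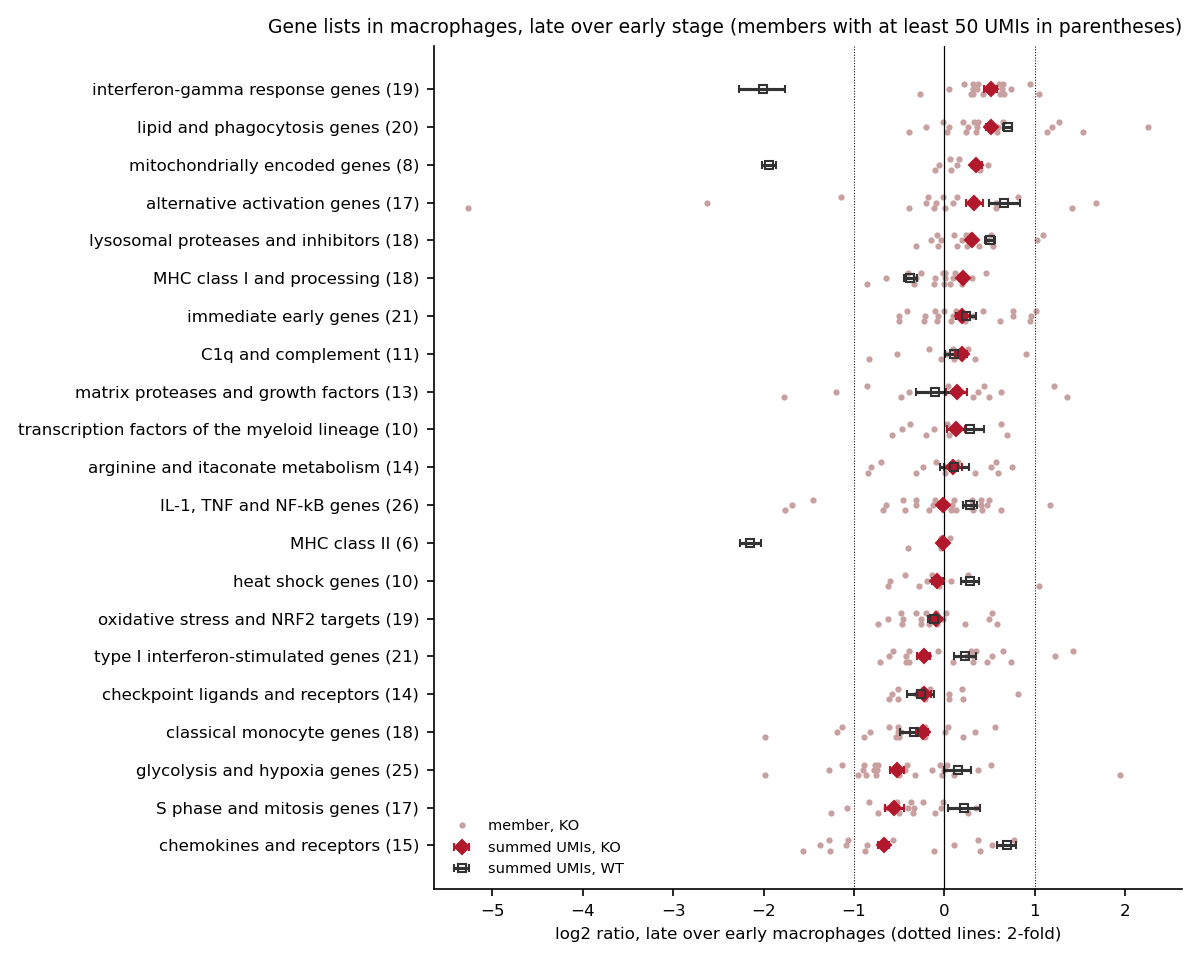
Log2 ratio of late over early for the summed UMIs of each gene list in KO (diamonds) and in WT macrophages (squares), with exact binomial intervals that cover counting error only, single list members in KO as small points and dotted lines at 2-fold. In KO the interferon-γ list lies at 0.51, the chemokine list at -0.67 and MHC class II at -0.02. In WT, whose late library held 19 macrophages, they lie at -2.01, 0.69 and -2.15.

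The promoters of 3 interferon-γ response genes and 2 chemokines with opposite ratios are shown because the list's members share short motifs there. Sequences are the 250 bases before the RefSeq start on GRCm38.p6, written 5′ to 3′ on the gene's strand, for Cxcl9 (chr5:92328080-92328329, minus strand), Cxcl10 (chr5:92348890-92349139, minus), Gbp7 (chr3:142530086-142530335, plus), Ccl9 (chr11:83578637-83578886, minus) and Ccl6 (chr11:83593088-83593337, minus). Capitals mark matches, on either strand, to the ISRE core GAAANNGAA, to GAS TTCNNNGAA, to AP-1 TGANTCA or to the NF-kB consensus.
Cxcl9: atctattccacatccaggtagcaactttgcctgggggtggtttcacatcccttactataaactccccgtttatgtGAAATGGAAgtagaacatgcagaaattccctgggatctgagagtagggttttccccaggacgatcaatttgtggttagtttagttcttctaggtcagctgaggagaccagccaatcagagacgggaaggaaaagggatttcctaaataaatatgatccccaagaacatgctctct
Cxcl10: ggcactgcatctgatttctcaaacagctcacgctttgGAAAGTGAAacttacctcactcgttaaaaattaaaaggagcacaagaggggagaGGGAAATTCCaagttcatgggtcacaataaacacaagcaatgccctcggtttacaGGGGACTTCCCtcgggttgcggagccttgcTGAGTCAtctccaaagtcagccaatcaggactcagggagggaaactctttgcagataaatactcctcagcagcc
Gbp7: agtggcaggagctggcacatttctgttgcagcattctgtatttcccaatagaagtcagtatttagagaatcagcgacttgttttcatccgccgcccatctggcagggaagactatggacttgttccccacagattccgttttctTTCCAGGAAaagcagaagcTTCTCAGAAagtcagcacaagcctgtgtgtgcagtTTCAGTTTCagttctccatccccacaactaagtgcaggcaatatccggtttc
Ccl9: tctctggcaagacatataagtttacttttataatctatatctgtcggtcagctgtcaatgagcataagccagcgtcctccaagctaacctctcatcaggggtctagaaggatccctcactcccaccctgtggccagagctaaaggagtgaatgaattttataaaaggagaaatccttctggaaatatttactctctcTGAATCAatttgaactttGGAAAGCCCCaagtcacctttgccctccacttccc
Ccl6: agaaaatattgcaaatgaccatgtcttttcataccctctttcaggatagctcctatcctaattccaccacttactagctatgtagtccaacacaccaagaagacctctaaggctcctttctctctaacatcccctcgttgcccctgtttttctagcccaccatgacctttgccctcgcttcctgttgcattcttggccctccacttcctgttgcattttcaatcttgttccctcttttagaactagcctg

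Counted back from the start, Cxcl9 had an ISRE core match at -175 to -167, and Cxcl10 one at -213 to -205, with an AP-1 match at -74 to -68 and NF-kB matches at -159 to -150 and, overlapping each other, at -104 to -95 and -103 to -94. Gbp7 had GAS matches at -106 to -98 and -87 to -79 and an ISRE core on the minus strand at -52 to -44. Ccl9 had an AP-1 match at -53 to -47 and an NF-kB match at -35 to -26, and none of the 4 motifs matched in this window of Ccl6. Of the 13 tested interferon-γ response genes with a promoter in the table, 12 (92.3%) held an ISRE core or GAS match, against 15.3% of all 27025 genes in the table, a gene with several promoters counting once if any of them matched. Among 10 chemokine and receptor genes 1 held such a match and 5 (50%) an NF-kB match, against 8.23% of all genes. A match describes letters only and shows no binding.

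MHC class II genes were at nearly the same summed level at the early and the late stage, 34506 and 33939 CPM, a log2 ratio of late over early of -0.02 (-0.06 to 0.01). The intermediate sum was somewhat higher at 39044 CPM, a ratio over early of 0.18 (0.14 to 0.21). Of 6 tested members 0 were 2-fold higher or lower. Cd74, the invariant chain that chaperones class II molecules, was at 10424, 14238 and 10129 CPM (-0.04, -0.10 to 0.02), H2-Aa at 7161, 6575 and 7105 CPM (-0.01, -0.09 to 0.06) and H2-Ab1 at 9233, 9666 and 9007 CPM (-0.04, -0.10 to 0.03). The counting intervals leave no room for a ratio as large as 2-fold between these 2 libraries. H2-DMb1, part of the peptide-loading molecule, was at 732, 451 and 555 CPM (-0.40, -0.65 to -0.15). For the class II sum, microglia of the early and late KO libraries had a ratio of -0.89 (-1.06 to -0.71), unlike the macrophages. Tumour cells had one of -0.04 (-0.07 to -0.00).

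In the WT libraries the class II sum was at 34234, 1435 and 7733 CPM (-2.15, -2.26 to -2.03), starting from a level like that of KO. Cd74 there was at 11620, 442 and 2934 CPM. Per KO cell, after thinning each cell to 1500 UMIs, the class II sum ranged from 0 to 873 per 10000 around a median of 333 at the early stage, from 0 to 720 around 413 at the intermediate stage and from 0 to 760 around 387 at the late stage. Each stage thus held cells with none and cells with much, and the 3 ranges overlapped almost wholly.

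The class I list of 18 tested members had 0 genes past 2-fold and a summed ratio of 0.20 (0.16 to 0.23). H2-K1, which presents peptides to CD8 T cells and may share reads with H2-D1, was at 3588, 3884 and 4950 CPM (0.46, 0.37 to 0.56), and H2-D1 at 4315, 4140 and 4497 CPM (0.06). Psme2 of the proteasome activator was at 541, 177 and 298 CPM (-0.86). Of 14 checkpoint ligands and receptors 0 were past 2-fold (median -0.21). Clec7a, the β-glucan receptor dectin-1, was at 3138, 3099 and 2512 CPM (-0.32) and Cd274, which encodes PD-L1, at 191, 169 and 198 CPM (0.05, -0.41 to 0.51).

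Of 20 lipid-handling and phagocytosis genes 5 were at least 2-fold higher and 0 lower, with 17 above 0 and a median of 0.35. Among all 2981 tested genes 3.96% were 2-fold higher, 1510 lay above 0 and the median was 0.01. The sum was at 16368, 24120 and 23271 CPM (0.51, 0.46 to 0.55), reaching its late level by the intermediate stage, and the WT sum had a ratio of 0.70. Abca1, the exporter of cholesterol, was at 27.7, 103 and 132 CPM (2.25, 1.31 to 3.33) and Gpnmb, a glycoprotein of lipid-laden phagocytes, at 40.2, 208 and 116 CPM (1.53, 0.69 to 2.44). Spp1, which encodes osteopontin, was at 1016, 941 and 2317 CPM (1.19, 1.02 to 1.36), although 294 of the 1018 late UMIs came from 1 cell. The tetraspanin Cd63 was at 267, 503 and 583 CPM (1.13), with a ratio of -1.27 in the few cells below the C1q limit. The most abundant member, Apoe, the lipid carrier, was at 8124 CPM (7846 to 8409), 15680 CPM (15284 to 16083) and 12266 CPM (11941 to 12598), a ratio of 0.59, and was highest at the intermediate stage. The scavenger receptor Msr1 was at 717, 524 and 546 CPM (-0.39).

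Of 18 lysosomal proteases and inhibitors 2 were 2-fold higher and 0 lower, with 13 above 0 and a summed ratio of 0.30 (0.26 to 0.34). Ctsb, a cysteine protease, was at 1765, 2691 and 3591 CPM (1.02, 0.90 to 1.16) and was detected in 70, 79 and 98 cells. Ctss, which trims the invariant chain, was at 6741, 7676 and 9813 CPM (0.54, 0.47 to 0.61), and the asparaginyl protease Lgmn at 1147, 1083 and 1586 CPM (0.47). Ctsc, which activates granule proteases, was at 2846, 1494 and 2289 CPM (-0.31). Ctss stood at 9084, 4817 and 8034 CPM in WT. The microglial marker list was at 712, 1181 and 1550 CPM in the KO macrophages, and its part in this group was not tested.

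The alternative activation list was divided. Of 17 members 2 were 2-fold higher, Selenop and Ccl8, and 3 were 2-fold lower, with a median of -0.02. Ccl24, an eosinophil attractant induced by interleukin-4, was at 395 CPM (335 to 462), 18.4 CPM (7.42 to 38.0) and 63.7 CPM (42.3 to 92.1), a log2 ratio of -2.63 (-3.27 to -2.04), in 10, 3 and 8 cells. Ccl17, a ligand of Ccr4, was at 105 UMIs in 6 early cells, 7 UMIs and 0, and was at least 38.7-fold lower in late than in early cells when the late sum is set to 3 counts. One early cell held 67 of its UMIs. The coagulation factor subunit F13a1 was at 236, 174 and 107 CPM (-1.14, -1.68 to -0.62). The dendritic cell marker list, of which Ccl17 is a member, stood at 976, 419 and 512 CPM with 10, 10 and 11 of 13 genes above 0. Its members Flt3, Xcr1 and Zbtb46 were at 0 to 2 UMIs in each library. Others had more in at least 1 library, with Ccr7 at 12, 17 and 8 UMIs and Clec9a at 11, 2 and 6. Cd209a was at 13, 0 and 2 UMIs, Il12b at 0, 17 and 2 and Naaa at 219, 91 and 145. The part of dendritic cells in these ratios was not tested. Without the cells that carried such markers Ccl24 had a ratio of -2.67, and in the few cells below the C1q limit one of 1.60.

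Of 18 classical monocyte genes 3 were at least 2-fold lower and 0 higher, with 5 above 0 (median -0.51). Chil3, a chitinase-like lectin of young monocytes, was at 216, 10.5 and 54.6 CPM (-1.99, -2.70 to -1.32) in 8, 2 and 9 cells, and Lsp1, a leukocyte actin-binding protein, at 254, 111 and 116 CPM (-1.13). The calcium-binding S100a10 was at 608, 332 and 328 CPM (-0.89) and S100a6 at 676, 227 and 473 CPM (-0.51). The list's sum was lowest at the intermediate stage, at 9962, 6364 and 8406 CPM. The 11 complement genes tested, C1q included, had 0 members past 2-fold, with C1qa at 1928, 2675 and 2310 CPM (0.26) and C1qc at 2343, 2277 and 2958 CPM (0.34).

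Of 25 glycolysis and hypoxia genes 20 lay below 0, with 3 at least 2-fold lower, 1 at least 2-fold higher and a median of -0.50. The sum was at 9190, 6385 and 6388 CPM (-0.52, -0.60 to -0.45), so the whole difference lay between early and intermediate. Eno1, the glycolytic enolase, was at 583, 177 and 266 CPM (-1.13, -1.46 to -0.80) and Ldha, which makes lactate, at 1059, 580 and 628 CPM (-0.75, -0.98 to -0.53). Pfkfb3, a regulator of glycolytic flux, was the exception at 30.2, 50.1 and 116 CPM (1.94, 1.02 to 2.99). The tumour cells of the same libraries had a like ratio for this list (-0.56, -0.58 to -0.53), and WT macrophages a ratio of 0.15 (0.00 to 0.29).

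Of 26 interleukin-1, TNF and NF-kB genes 1 was 2-fold higher and 3 lower (median 0.07). Il1b, the abundant inflammatory cytokine, was at 5154, 4925 and 5512 CPM (0.10, 0.01 to 0.18), unlike Il1a. Nfkbiz, a nuclear cofactor of NF-kB, was at 332, 601 and 749 CPM (1.17, 0.88 to 1.48). Bcl2a1d, a survival factor with near-identical copies that can split its reads, was at 367, 198 and 134 CPM (-1.45). Among 13 matrix proteases and growth factors, Timp2, an inhibitor of metalloproteases, was at 95.5, 184 and 246 CPM (1.36) and the receptor Nrp1 at 101, 134 and 232 CPM (1.21), while the elastase Mmp12 was at 344, 316 and 150 CPM (-1.20) with 53 of 66 late UMIs in 1 cell.

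S phase and mitosis genes had 15 of 17 members below 0 and a sum of 4035, 3365 and 2747 CPM (-0.56, -0.66 to -0.45). Tuba1b, a tubulin, was at 787, 601 and 373 CPM (-1.08) and Top2a, the topoisomerase of dividing cells, at 322, 311 and 193 CPM (-0.73). The per-cell median of the list was 20.0 per 10000 at each stage. Of 19 oxidative stress and NRF2 target genes and of 14 arginine and itaconate genes 0 were past 2-fold, with summed ratios of -0.09 (-0.13 to -0.05) and 0.09 (-0.01 to 0.19). The 10 myeloid transcription factors also held 0 (0.13, 0.03 to 0.23). Of 21 immediate early genes, which tissue dissociation can induce, 1 was 2-fold higher (0.19, 0.13 to 0.25), and of 10 heat shock genes 1 (-0.08, -0.14 to -0.02).

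**Figure D4:**
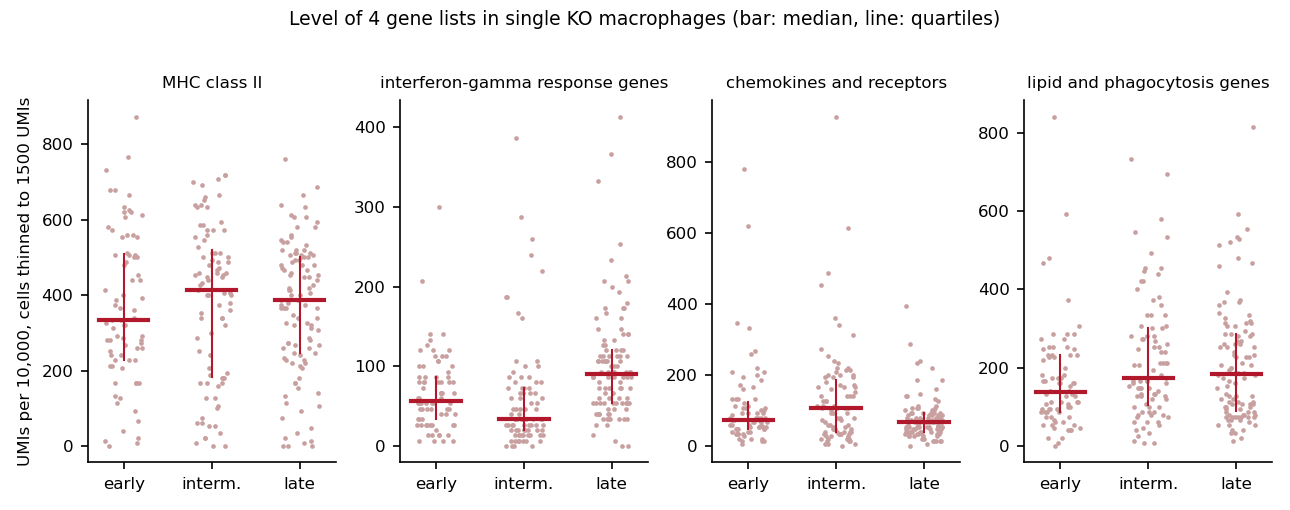
Each point is 1 KO macrophage thinned to 1500 UMIs, with the summed UMIs per 10000 of a gene list on the vertical axis a line over the quartiles and a bar at the median of each stage. Medians of the MHC class II list are 333, 413 and 387, and those of the interferon-γ list 56.7, 33.3 and 90.0.

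Per cell, the interferon-γ list had medians of 56.7, 33.3 and 90.0 UMIs per 10000 at the early, intermediate and late stage, the same order as the sums. The chemokine list had medians of 73.3, 107 and 66.7, with single cells up to 780, 927 and 393, so the difference between the early and late sums lay largely in cells with high values. The medians of lipid and phagocytosis genes were 137, 173 and 183, with single cells spread widely at each stage.

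Intermediate macrophages were placed between the stages gene by gene, on the log2(CPM + 10) scale. Of the 118 higher genes 76 had an intermediate level between early and late, 23 at or past early and 19 at or past late. Of the 99 lower genes 63 lay between, 5 at or past early and 31 at or past late. The median position, 0 being early and 1 late, was 0.535 for the higher and 0.684 for the lower genes. These positions use the early and late levels that chose the genes, and are a description.

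Against early cells, 112 of 2728 tested genes were at least 2-fold higher in intermediate cells (4.11%) and 148 lower (5.43%). Late cells differed from intermediate cells by 2-fold in 110 higher (3.79%) and 73 lower genes (2.52%) of 2901. The intermediate library was therefore no plain midpoint. Its mitochondrially encoded genes summed to 38828 CPM, against 11752 CPM at the early and 15004 CPM at the late stage. Most of this was the ribosomal RNA mt-Rnr2, at 7689, 34435 and 10703 CPM. Mitochondrial transcripts were also high in the tumour cells of that library, with 1.62%, 3.67% and 1.36% of UMIs at the 3 stages. The 2-fold counts without mitochondrial and ribosomal protein genes in the totals stayed within 1.5 times those given.

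The macrophages were further divided by the complement genes C1qa, C1qb and C1qc, which rise as monocytes become macrophages. Cells with at least 10 UMIs per 10000 of the 3 numbered 56, 75 and 87, or 73.7% (62.3 to 83.1), 86.2% (77.1 to 92.7) and 82.1% (73.4 to 88.8), with 5, 6 and 3 cells near the limit (5 to 20 per 10000). The limit is a point on a range and marks no separate cell type. The 20, 12 and 19 cells below it are few.

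The interferon-γ list differed most between the 2 sets of cells. In cells below the C1q limit it was at 5119, 6177 and 14558 CPM (1.51, 1.33 to 1.69), and in C1q cells at 7176, 4962 and 8704 CPM (0.28, 0.20 to 0.36). Cxcl9 was at 557, 642 and 2498 CPM below the limit (2.16), against 1277, 994 and 1281 CPM in C1q cells (0.00). Gbp2 had ratios of 1.69 and 0.49. The intervals of the list's ratios did not overlap, which concerns counting error in cells of the same 2 mice only.

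**Figure D5:**
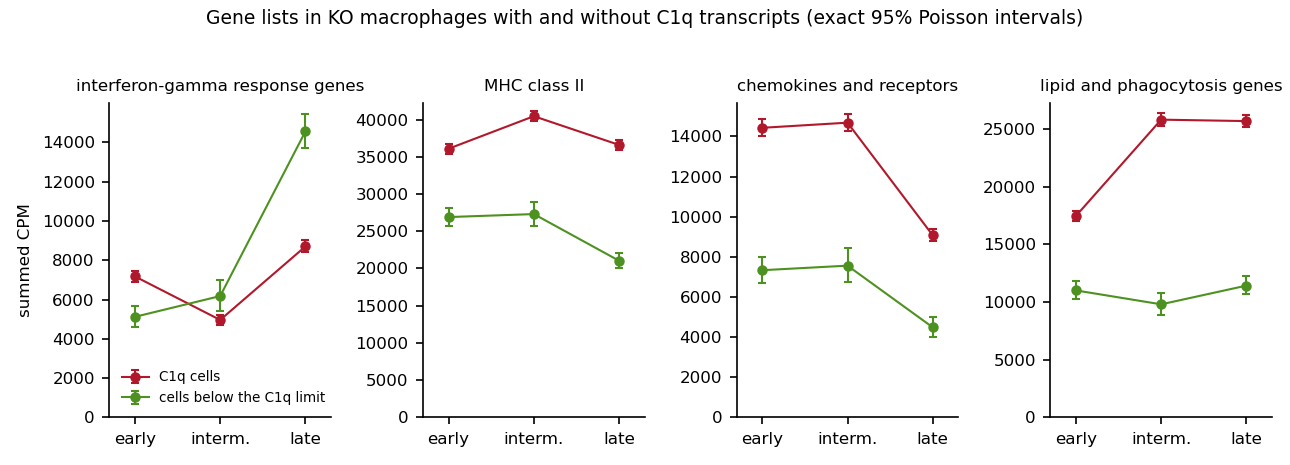
Summed levels (CPM) of selected gene lists at the 3 stages in KO macrophages at or above the C1q limit and below it, with exact Poisson intervals for counting error. The interferon-γ list reaches 14558 CPM in late cells below the limit and 8704 CPM in late C1q cells, while the chemokine list is at 4488 and 9071 CPM there.

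The chemokine list had ratios below 0 in both, at 14429, 14684 and 9071 CPM in C1q cells (-0.67) and 7334, 7561 and 4488 CPM below the limit (-0.71). Ccl6 had ratios of -1.49 and -2.16. Ccl2 was counted mostly in C1q cells, at 1183, 1000 and 390 CPM there (-1.60) and at 10, 1 and 28 UMIs in the cells below the limit (1.35). Lipid and phagocytosis genes had a ratio of 0.56 in C1q cells and of 0.05 below the limit. Vcam1 was at 33.4, 260 and 332 CPM in C1q cells and at 0, 0 and 2 UMIs below the limit, where fewer UMIs were counted. MHC class II was at 36080, 40445 and 36590 CPM in C1q cells (0.02) and 26901, 27304 and 21036 CPM below the limit (-0.35).

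A test with replicates was possible only over both genotypes, with the KO and WT library of a stage as its 2 samples. In edgeR's quasi-likelihood test of late against early over the 6 tumour-bearing libraries, with genotype as a term, 0 of 6150 genes passed an adjusted p of 0.05 in either direction (0% of the genes tested), and 253 had an unadjusted p below 0.05. DESeq2 called 0 genes as well, with 80 unadjusted. The lowest adjusted p of edgeR was 0.287, for Fcrls (3.22) and Inhba (-4.41). Leaving out 1 library at a time gave 5 to 85 genes, with 85 without the early KO library, 16 without the late and 7 without the intermediate KO library, and the cause was not tested. This test asks what KO and WT share, does not address genes that differ in direction between them, and has no term for sex. In counts simulated with the fit's own spread between libraries, it found 1 of 188 genes changed 2-fold and 87 of 189 changed 4-fold. A count of 0 therefore does not show that KO and WT share no change.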

How the data were processed

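Drop-seq UMI counts of 8 libraries were used, 1 for each genotype and condition. The authors made the deposited counts per gene and cell barcode, which are not normalized, with the Drop-seq pipeline; the submitters' processing notes name bcl2fastq 2.0, STAR, GRCm38 and mm10. Gene positions are from GENCODE M21. Genes found in at least 30 cells were kept. UMIs were summed over the macrophages of a library and compared as ratios with Python 3.11.15, numpy 2.4.6, scipy 1.17.1 and pandas 2.3.3; a sum of 0 was set to 3 counts. Genes needed 50 UMIs in both sums together.

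The macrophages, gene lists and tests were chosen with earlier results of these data known. Named were the 12 highest and 12 lowest ratios with at least 100 UMIs outside the 18 rule genes, up to 4 members per list with at least 100 UMIs by size of ratio, 26 genes the study names, the rule genes and Acod1; other list members were chosen after their values were seen. Symbols matched a RefSeq promoter for 94 of 133 named genes. The test over both genotypes used edgeR 4.0.16 (TMM, filterByExpr, R 4.3.3) with DESeq2 1.42.0 as an alternative, and was tested on simulated data.

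Doublets were not removed. Scrublet (scanpy 1.11.5) marked under 0.5% of cells in 5 of the 6 tumour-bearing libraries, where the 5% with the highest score were left out instead as an alternative (2, 0 and 2 KO macrophages). Alternatives changed the scaling, the weight of cells, the minimum of UMIs or genes and the choice of cells. Those without the top cell, without cells carrying oligodendrocyte or endothelial markers and with the chemokines of other lists were added after the data were seen. Results for some genes are not reported here.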

Additional observations from a re-analysis of the deposited data

Results flagged for a closer look

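Late-over-early log2 ratios with intervals on opposite sides of 0 in KO and WT macrophages were found for 7 of the 21 gene lists. They were also found for 17 of the named genes reported here, with at least 30 WT UMIs and leaving out the genes that chose the cells. How many named genes met these limits, and the share over all tested genes, was not counted. Many named genes were picked by the size of their KO ratio, and the intervals cover counting error only. Early and late mice were both male in KO, but female and male in WT. None of these differences was tested, since each stage and genotype had 1 library, and the late WT sum came from 19 cells. The part of transcripts of other cell types in the WT sums was not tested either. Summed over lists, the ratio was 0.51 in KO and -2.01 in WT for interferon-γ response genes, -0.67 and 0.69 for chemokines and receptors, -0.56 and 0.22 for S phase and mitosis genes, 0.20 and -0.38 for MHC class I and processing, -0.23 and 0.23 for type I interferon-stimulated genes, -0.08 and 0.28 for heat shock genes, and 0.35 and -1.94 for mitochondrially encoded genes.

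Of the single genes, Vcam1 had a ratio of 3.34 in KO and -4.57 in WT. The interferon-inducible genes were on the same sides, with Gbp8 at 1.04 and -4.25, Gbp2 at 0.74 and -5.51, Cxcl10 at 0.95 and -1.81, Irf1 at 0.65 and -1.75 and Gm1966 at 1.51 and -2.14. Ccl5 was at 0.31 in KO and, with 0 late WT UMIs set to 3 counts, at a bound of -4.36 in WT. Late WT macrophages held 1 UMI each of Vcam1, Gbp8 and Gbp2. H2-K1 was at 0.46 and -0.54, the lysosomal protease Ctss at 0.54 and -0.18, the oxidase subunit Cybb at 0.53 and -0.55, the filament protein Vim at 0.21 and -0.70 and mt-Rnr2 at 0.48 and -2.27.

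The other direction was found for Ccl2, at -1.38 in KO and 1.22 in WT, Ccl7, at -1.27 and 0.72, Eno1, at -1.13 and 0.79, Ifitm3, at -0.71 and 0.56, and the inhibitory receptor Lilrb4a, at -0.24 and 0.56.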

How the results depend on the processing

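Of 595 alternative values of the 43 named genes at least 2-fold apart, 548 were still 2-fold in the same direction. The 118 higher and 99 lower genes became 29 and 35 with cells thinned to 1500 UMIs, 451 and 327 with at least 20 UMIs per gene, 38 and 51 with at least 100, and 34 and 23 in cells below the C1q limit, where fewer UMIs or genes enter. Genes between early and late were 71.4% with stricter marker limits and 74.3% in C1q cells. The S phase median was -0.08 as a mean over cells and -0.79 with thinned cells, and the interferon-γ median 0.26 in C1q cells and 1.70 below the limit. Other medians below the limit were -0.65 (C1q and complement), 0.08 (lipid), -0.44 (lysosomal), 5.05 (alternative activation, from Ccl8 against 0 counts), -0.52 (NRF2), 1.52 (matrix) and -0.57 (checkpoint). The sign turned for Ctla2a with stricter limits (-1.15) and in C1q cells (-0.56), Ifitm1 in C1q cells (-0.26), Ccl24 (1.60), Zfp622 (0.09), Cd63 (-1.27), Ccl2 (1.35) and Ccl7 (0.86) below the limit, and Apod (-0.77) without oligodendrocyte or endothelial marker cells, an alternative chosen after seeing the data. The cause was not tested.

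The edgeR count of 0 became 29 (10 higher, 19 lower) without a filter on low counts, 85 without the early KO library, 16 without the late, 7 without the intermediate KO library, and 8, 8 and 5 without the early, intermediate and late WT library. Such fits leave a stage with 1 sample, assumed to vary like the others. The count stayed 0 with DESeq2, at least 10 cells per sum, only early and late libraries, or no genotype term. No paired analysis was possible because each stage and genotype had 1 library, all with the same replicate number. Depth limits genes under 50 UMIs, and 1 mouse per stage leaves the spread between mice unmeasured. The macrophage share differed between late and early by 4.68 percentage points (3.07 to 6.81 over the alternatives).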
